A study of Mus musculus with 4 samples.

Results

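The genes described here are 9 components of the cytotoxic granule, chosen by name: the granzymes Gzma, Gzmb, Gzmc and Gzmk, the pore former Prf1, and the granule or granule-related genes Srgn, Ctsc, Nkg7 and Serpinb9. All 9 were found among the 50600 genes of each table. They were measured by RNA sequencing in regulatory T cells from C57BL/6NJ mice, the CD4+ T cells that depend on Foxp3 and restrain other immune cells. The single group held 4 libraries, biological replicates 1 to 4, with no treated or control arm. The labels record no sex and give the age as unknown. All 4 share a donor record, and separate animals are not stated, so the spread between replicates may in part be technical. A CD4+ T cell differentiation protocol is linked to the samples, and the file headers describe sorted, activated cells at 72 h.

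Cytotoxic granules are secretory lysosomes. Perforin opens the target cell membrane and granzymes, a family of serine proteases, pass through and cleave proteins that lead to cell death. Granzymes are made as inactive precursors that cathepsin C trims, they are stored on the proteoglycan serglycin, and the cell that carries them can shield itself with a cytosolic serpin that inhibits granzyme B. Granzyme B and perforin have been described in regulatory T cells as one route of suppression, mostly in activated cells or in tumours.

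Library depth ran from 32648138 to 94983494 counts, and 3 counts, the floor used here, correspond to 0.0316 to 0.0919 CPM, counts scaled to a common library total, in a single library. Levels are in TPM, which is scaled in the same way after division by exon length, and a gene is called expressed when each library has at least 1 TPM. All 6 regulatory T cell markers and all 8 pan T cell markers examined were expressed, with Foxp3 at 460, 465, 495 and 433 TPM in replicates 1 to 4. Y-linked genes held 0.00204% to 0.00304% of counts in replicates 1 and 2 and 0.0202% to 0.0241% in replicates 3 and 4. These pairs of libraries thus stand apart, and the source of the difference was not tested. The TPM ranges of the 2 pairs overlapped for Ctsc, Nkg7, Srgn, Serpinb9, Gzmb and Prf1. Of the 51 genes that varied more than the trend between libraries, replicate 1 lay farthest from the mean in 32.

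The 9 genes ranged from over 100 TPM to no count. Ctsc, Nkg7 and Srgn averaged 120.4, 96.3 and 82.6 TPM, and Serpinb9 5.88 TPM. Gzmb averaged 1.31 TPM, Prf1 0.301 TPM, Gzmc 0.0756 TPM and Gzma 0.0414 TPM, and Gzmk had no count. The means of Gzmc and Gzma rest on 5 and 2 counts: Gzmc was at 0.0355 TPM without replicate 2 and Gzma at 0.0174 TPM without replicate 4. Thus 4 of 9 genes were expressed in every library, where 23.9% of all genes and 49.1% of protein-coding genes were, so the share by itself does not set the genes apart. In each library the granzymes and perforin together made up 0.158% to 0.908% of the summed TPM of the 9 genes. These are bulk samples, in which fewer cells making a transcript and less of it per cell cannot be told apart.

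**Figure D1:**
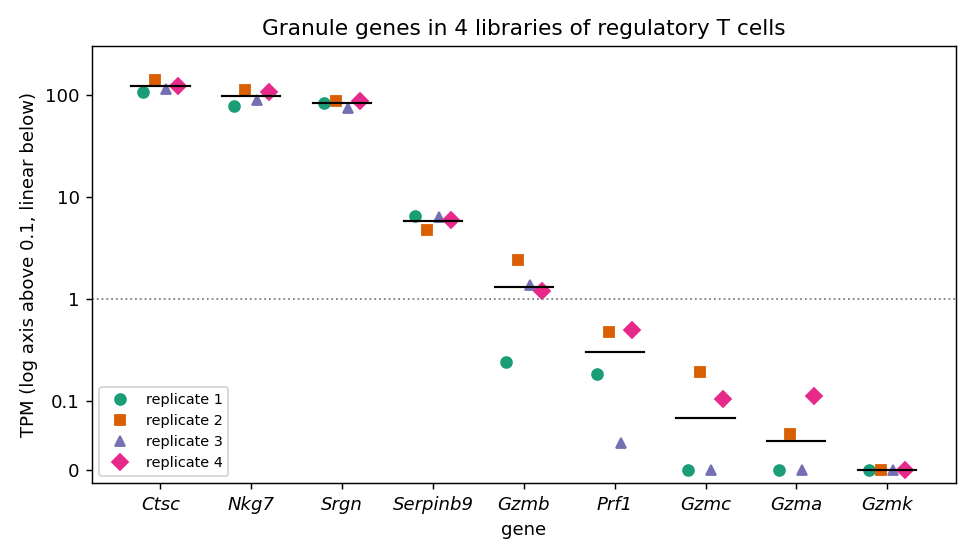
TPM of the 9 granule genes in each library (1 point per replicate, horizontal bar = mean of 4, dotted line = 1 TPM), ordered by mean; the axis is logarithmic above 0.1 TPM and linear below. Ctsc, Nkg7 and Srgn lie between 74.0 and 139.8 TPM in every library, whereas Prf1, Gzmc, Gzma and Gzmk lie below 1 TPM in every library.

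Gzmb encodes granzyme B, a granzyme known for cutting caspases. It lies on mm10 chromosome 14 at 56258856 to 56262260 (minus strand, ENSMUSG00000015437.4). Its counts were 5, 75, 58 and 17 in replicates 1 to 4, which gave 0.244, 2.42, 1.39 and 1.19 TPM, a mean of 1.31 ± 0.892 TPM (SD, n = 4). Replicate 2 was the highest and replicate 1 the lowest, the only one of the 4 libraries under 1 TPM. Without replicate 1, Gzmb would count as expressed and the number of expressed members would be 5 of 9.

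The difference in Gzmb between replicate 1 and the others was larger than counting error and was not called by the test of variation between libraries. In CPM, with exact 95% Poisson intervals that cover counting error only, Gzmb was at 0.109 (0.0353 to 0.253) in replicate 1, 1.04 (0.818 to 1.30) in replicate 2, 0.611 (0.464 to 0.789) in replicate 3 and 0.521 (0.303 to 0.834) in replicate 4. The interval of replicate 1 did not overlap the other 3. The gene missed the low-count filter of the test for variation between libraries. With no such filter, the Benjamini-Hochberg adjusted p of edgeR was 1.00 for Gzmb, and 38 of 22353 genes (0.17%) were called.

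Prf1, which encodes perforin, lies on chromosome 10 at 61297833 to 61304680 (plus strand, ENSMUSG00000037202.6). Its counts were 7, 27, 3 and 13, or 0.187, 0.478, 0.0393 and 0.501 TPM, with a mean of 0.301 ± 0.226 TPM (SD, n = 4). Replicates 2 and 4 were high and replicate 3 was at the 3-count floor. The Poisson interval of replicate 3, 0.00651 to 0.0923 CPM, lay below those of replicates 2 (0.247 to 0.544 CPM) and 4 (0.212 to 0.681 CPM) and overlapped that of replicate 1 (0.0611 to 0.313 CPM). Without the filter, edgeR's Benjamini-Hochberg adjusted p was 1.00 for Prf1 too. The libraries with the least Gzmb and the least Prf1 were different ones, replicates 1 and 3.

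**Figure D2:**
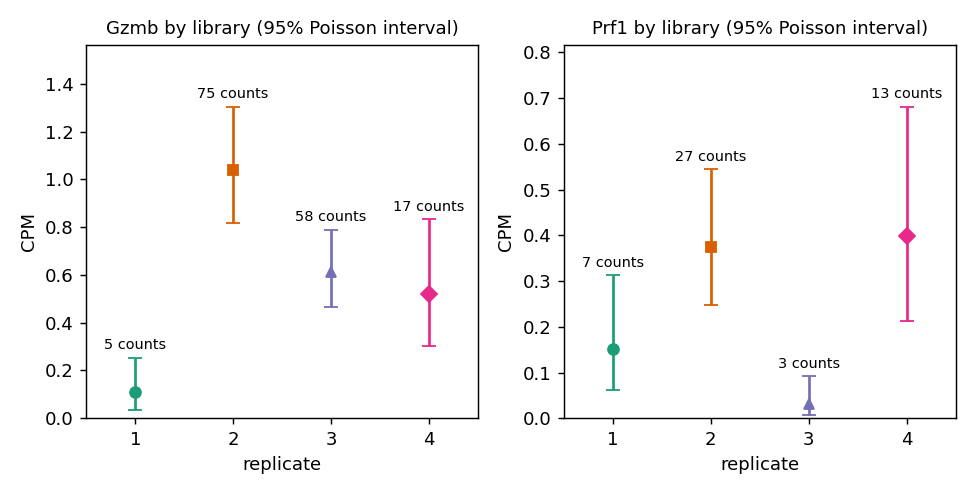
Gzmb (left) and Prf1 (right) in CPM by replicate, with exact 95% Poisson intervals as error bars and the raw counts above them. Replicate 1 is lowest for Gzmb (5 counts) and replicate 3 for Prf1 (3 counts).

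The other granzymes among the members, Gzma, Gzmc and Gzmk, were at or near 0. Gzma, the tryptase-like granzyme that targets the SET complex, had 0, 1, 0 and 1 counts, and Gzmc had 0, 4, 0 and 1. Gzmk had no count in 245823618 counts over the 4 libraries, for which 3 counts would be 0.0122 CPM. Gzma is on chromosome 13 at 113093825 to 113100979, and the Gzmk gene begins 70.6 kb farther along, at 113171608, and ends at 113225908; both are on the minus strand. Over all libraries, Gzma stood at 0.00814 CPM (95% Poisson interval 0.000985 to 0.0294) and Gzmc at 0.0203 CPM (0.00660 to 0.0475), so for Gzma, at 2 counts, no fold change between libraries is given. Such levels show that transcripts of these genes were scarcely detectable at this depth, not that they were absent.

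Gzmb is the end member of a chromosome 14 cluster of granzyme and mast cell protease genes, and the counts of the cluster were almost all its own. The 15 protein-coding genes of the cluster, from Cma1 at 55941453 to Gzmb at 56262260, span 321 kb with no other protein-coding gene inside. They held 166 counts over 4 libraries, of which Gzmb had 155, its nearest neighbours Gzmc and Gzmf 5 each, and Cma1 1. The other 11, among them Gzmd, Gzme, Gzmg, Gzmn and the neutrophil protease gene Ctsg, had none. Beyond Gzmb the next protein-coding gene, Atp12a, lies 103 kb away and also had no count. Gzmc (56231401 to 56234656) is 24.2 kb from Gzmb. Reads that fit more than 1 place were not counted, and 4.14% of the 50-base windows of the Gzmc transcript also occur in transcripts of other genes, chiefly Gzme, and the part of this in its count was not tested. For Gzma, Gzmb, Gzmk, Prf1, Nkg7 and Srgn no window was shared, and for Serpinb9 and Ctsc 0.380% and 0.883% were. Only the members were examined in this way, so reads left uncounted for the other cluster genes were not measured.

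**Figure D3:**
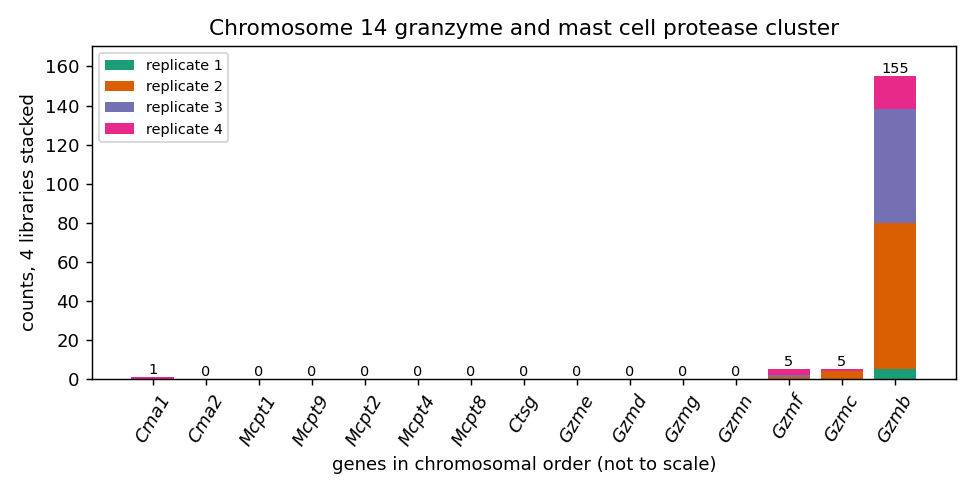
Counts of the 15 genes of the chromosome 14 cluster in chromosomal order (not to scale), stacked over the 4 replicates with the total above each bar. Gzmb holds 155 of 166 counts and 11 genes hold none.

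Among the other granzymes, Gzmm, which lies outside the cluster and encodes the granzyme of innate-like lymphocytes, was at 3.43, 1.15, 1.36 and 1.35 TPM. It was expressed in every library and was highest in replicate 1. Its mean of 1.82 TPM was above the 1.31 TPM of Gzmb, although Gzmb was the higher of the pair in replicates 2 and 3. In the list of 13 further granzymes and cluster proteases, 1 of 13 was expressed and 10 had no count. The list median was 0 TPM, the same as the median over all genes, while the median of protein-coding genes was 1.21 TPM.

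Srgn encodes serglycin, the proteoglycan core on which granzymes and perforin are packed. It lies on chromosome 10 at 62493833 to 62527451 (minus strand, ENSMUSG00000020077.14). It was at 82.6, 86.7, 74.0 and 86.9 TPM in replicates 1 to 4, a mean of 82.6 ± 6.06 TPM (SD, n = 4), from 1918 to 4794 counts. The 4 libraries lay close together, the highest at 1.18 times the lowest, and 79.9% of the 12114 expressed genes had a lower mean. The serglycin core carries chondroitin sulfate chains, and 12 of 14 genes for making such chains were expressed, led by B3gat3 (94.5 ± 7.36 TPM), Chst12 (62.8 ± 3.08 TPM) and Chpf (52.9 ± 2.50 TPM).

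Ctsc encodes cathepsin C, also called dipeptidyl peptidase I, which removes the dipeptide that keeps granzyme precursors inactive. It lies on chromosome 7 at 88278085 to 88310888 (plus strand, ENSMUSG00000030560.17). Its level was 106, 139.8, 114 and 122 TPM, a mean of 120.4 ± 14.3 TPM (SD, n = 4), from 7091 to 19573 counts per library. Replicate 2 was highest and replicate 1 lowest. The level depends on the length used: with the longest protein-coding transcript of each gene (3220 bases for Ctsc against an exon total of 5808 bases) it was 157 ± 18.7 TPM. Cathepsin C also acts in lysosomal turnover in many cells, and 12 of 14 other cathepsin and cystatin genes were expressed, with a list median of 98.9 TPM. Ctsz led at 587 ± 42.4 TPM, followed by Ctsw, a cathepsin known from T and NK lymphocytes, at 327 ± 19.8 TPM and the inhibitor Cstb at 209 ± 18.3 TPM. Cst7, which encodes cystatin F, a granule inhibitor of cathepsin C, was named after its values were seen; it was at 10.6, 12.7, 19.3 and 17.2 TPM, below Ctsc in every library.

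Nkg7 encodes a small membrane protein of cytotoxic granules that is needed for efficient degranulation. It lies on chromosome 7 at 43437073 to 43438249 (plus strand, ENSMUSG00000004612.9). Its level was 77.3, 112, 89.7 and 106 TPM, a mean of 96.3 ± 15.7 TPM (SD, n = 4), and 82.9% of expressed genes had a lower mean. Replicate 1 was lowest and replicates 2 and 4 highest, the highest being 1.45 times the lowest. Prf1 was under 1 TPM in each of the same libraries. The neighbouring genes differed among themselves: Lim2, 1.08 kb away on one side, had no count, Cldnd2, 2.53 kb away on the other, averaged 2.12 ± 0.726 TPM, and Etfb beyond it 58.9 ± 6.43 TPM.

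Serpinb9 encodes the serpin that inhibits granzyme B and lies on chromosome 13 at 33003250 to 33017957 (plus strand, ENSMUSG00000045827.10). It was at 6.44, 4.74, 6.44 and 5.90 TPM, a mean of 5.88 ± 0.804 TPM (SD, n = 4). Replicate 2, the library with the most Gzmb, had the least Serpinb9, and the TPM ratio of Serpinb9 to Gzmb was 26.5, 1.96, 4.65 and 4.94 in replicates 1 to 4. Since 18.2% of expressed genes had a lower mean, Serpinb9 was at the low end of expressed genes. Of 18 other clade B serpins 4 were expressed and 12 had no count. Sequence shared among these other serpins, which could leave reads uncounted, was not examined. Serpinb6a and Serpinb6b were higher than Serpinb9, at 65.8 ± 6.88 and 39.2 ± 6.13 TPM. Serpinb2 was at 2.10 ± 0.252 TPM. On the chromosome Serpinb9 sits 24.2 kb from Serpinb6b on one side and 9.46 kb from Serpinb9b, which had no count, on the other.

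The promoter letters are given for a pair of genes with few transcripts, Gzmb and Prf1, and a pair with many, Ctsc and Srgn, because they differ in level within the same libraries. Each is the 250 bases before the transcription start in RefSeq (build GRCm38.p6), written 5′ to 3′ on the strand of the gene. Capitals mark matches, on either strand, to RUNX (TGNGGT), AP-1 (TGANTCA), T-box (GGTGTGA), STAT (TTCNNNGAA) or Sp1 (GGGCGG) letters. The windows are chr14:56262335-56262584 (minus), chr10:61297586-61297835 (plus), chr7:88277835-88278084 (plus) and chr10:62527446-62527695 (minus).
Gzmb: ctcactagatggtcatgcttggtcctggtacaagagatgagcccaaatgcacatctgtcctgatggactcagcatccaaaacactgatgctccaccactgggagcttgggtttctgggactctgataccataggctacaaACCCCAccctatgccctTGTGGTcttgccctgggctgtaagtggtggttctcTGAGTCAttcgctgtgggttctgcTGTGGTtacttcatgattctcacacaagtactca
Prf1: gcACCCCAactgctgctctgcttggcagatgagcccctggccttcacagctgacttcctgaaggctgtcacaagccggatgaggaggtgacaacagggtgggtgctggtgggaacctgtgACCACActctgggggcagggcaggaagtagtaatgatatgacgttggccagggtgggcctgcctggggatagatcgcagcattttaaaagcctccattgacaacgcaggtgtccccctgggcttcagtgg
Ctsc: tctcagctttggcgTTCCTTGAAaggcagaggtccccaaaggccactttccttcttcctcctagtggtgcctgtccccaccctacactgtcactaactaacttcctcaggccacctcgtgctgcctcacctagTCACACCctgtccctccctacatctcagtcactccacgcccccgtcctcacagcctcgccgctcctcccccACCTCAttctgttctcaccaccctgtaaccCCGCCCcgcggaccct
Srgn: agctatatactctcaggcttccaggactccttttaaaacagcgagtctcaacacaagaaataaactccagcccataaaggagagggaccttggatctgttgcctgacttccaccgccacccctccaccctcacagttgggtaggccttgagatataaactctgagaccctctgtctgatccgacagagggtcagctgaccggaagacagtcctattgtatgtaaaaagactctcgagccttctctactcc

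Gzmb held 3 RUNX matches and 1 AP-1 match, the latter at 58 to 52 bases before the start, and Prf1 held 2 RUNX matches. Ctsc held 1 match each to the RUNX, T-box, STAT and Sp1 letters, and the Srgn window shown held none. Matches of different motifs did not overlap in any of the windows of the 9 genes. Of 32851 RefSeq windows of the same length, 40.1% held the RUNX letters, 6.75% AP-1, 3.33% T-box, 7.02% STAT and 32.7% Sp1. A match is a description of letters, and no factor binding was measured. The RefSeq start of Gzmb lies 74 bases upstream of the gene start in the deposited table, and Srgn has a further RefSeq start inside the gene, whose use these counts per gene do not show. The window before that start held 2 RUNX matches.

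Differences between members were taken within each library on the log2(TPM + 1) scale, which understates differences that involve very low genes. Gzmb exceeded Prf1 by 0.76 ± 0.55, Gzma by 1.06 ± 0.58 and Gzmc by 1.02 ± 0.52 (SD, n = 4). Serpinb9 exceeded Gzmb by 1.66 ± 0.75, Srgn exceeded Gzmb by 5.26 ± 0.60, and Ctsc exceeded Gzmb by 5.80 ± 0.46. Nkg7 exceeded Prf1 by 6.23 ± 0.17. Which gap is widest depends on the length used: with transcript lengths Ctsc minus Gzmb was 6.41 and Nkg7 minus Prf1 5.89. All 7 of these differences were positive in 4 of 4 libraries. The two-sided exact permutation test by sign flips gave p = 0.13 for each (0.143 after Benjamini-Hochberg adjustment over 8 differences), the smallest that 4 libraries allow before adjustment, so this test cannot pass 0.05. On the log2(CPM + 1) scale, with no division by length, Gzmb minus Prf1 was 0.32 in the mean but negative in replicate 1, where Gzmb had 5 counts and Prf1 7 (exact permutation p = 0.25). Gzma minus Gzmk was positive in 2 of 4 libraries (p = 0.5 in the same exact test), and both genes were at or under the floor.

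The order of levels was Ctsc, Nkg7, Srgn, Serpinb9, Gzmb, Prf1, Gzmc, Gzma and Gzmk. Ctsc was above Nkg7 in 4 of 4 libraries and Nkg7 above Srgn in 3 of 4, and the ranges of these neighbours overlapped. With transcript lengths in place of exon totals, Srgn (75.9 ± 5.64 TPM) was above Nkg7 (72.2 ± 11.7 TPM) in the mean, so the order of that pair is not settled. The ranges of Srgn and Serpinb9, and of Serpinb9 and Gzmb, did not overlap. Below Gzmb, each neighbour overlapped the next, and Gzmc was above Gzma in 1 of 4 libraries, so the order of that pair is not settled either.

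Variation between libraries was tested in the 4 members with enough counts. With edgeR's goodness-of-fit test against the trended dispersion, 51 of 13478 genes (0.378%) varied beyond the trend at a Benjamini-Hochberg adjusted p under 0.05. None of the 4 tested members did, and 0 of 4 had an unadjusted p under 0.05. The edgeR adjusted p was 0.965 for Nkg7 and 0.9998 for Ctsc, Srgn and Serpinb9. A test with DESeq2's size factors and dispersion trend also called 0 of the 4 members (61 genes in all, 0.453%). So did edgeR with a single common dispersion, which called 931 genes (6.91%). The highest library was 1.18 times the lowest for Srgn, 1.32 for Ctsc, 1.36 for Serpinb9 and 1.45 for Nkg7. In simulated counts, changes were placed in genes with a mean of 5 CPM or more. Of genes changed by 1.5-fold 4% were recovered, with 64% at 2-fold and 100% at 4-fold. Differences of the size seen in these 4 members were thus mostly below what the test can call. Genes as low as Gzmb and Prf1 were not covered by the simulation. On log2 CPM the range over libraries was 0.21 for Srgn, 0.32 for Ctsc, 0.45 for Nkg7 and 0.52 for Serpinb9. The median range of 9895 genes with a mean of 5 CPM or more was 0.24. Of these genes 91.2% had a narrower range than Serpinb9, 86.7% than Nkg7, 68.9% than Ctsc and 39.3% than Srgn. Serpinb9 averaged 6.36 CPM, close to the cut of 5 CPM, and the part of counting error in its range was not separated.

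**Figure D4:**
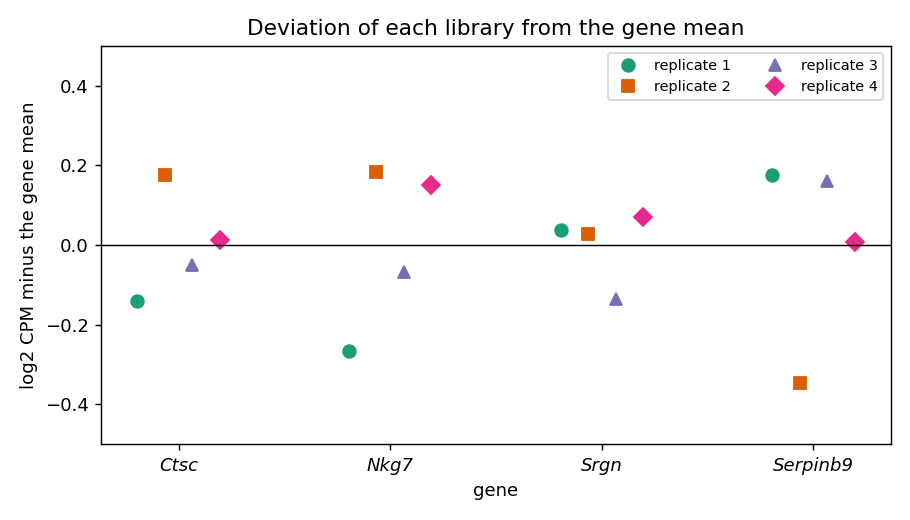
Deviation of each library's log2 CPM from the gene mean for the 4 members with enough counts to test (1 point per replicate). Ctsc and Nkg7 are lowest in replicate 1 and highest in replicate 2, and Serpinb9 is lowest in replicate 2, at -0.35.

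Serpinb9 had the widest range of the tested members on log2 CPM. In TPM the highest library was 1.36 times the lowest for Serpinb9 and 1.45 times for Nkg7. The 3 genes whose 4 deviations lay nearest to its own, by Euclidean distance on log2 CPM among 9894 genes, were Spef1 (distance 0.03), Mrps28 (0.04) and Abcb8 (0.04). Spef1 was at 8.75, 6.38, 8.92 and 8.04 TPM, Mrps28 at 88.2, 64.0, 85.1 and 78.6 TPM and Abcb8 at 57.6, 44.0, 58.2 and 54.0 TPM. All 3 were lowest in replicate 2, as Serpinb9 was. With 4 libraries and so many genes, near matches of this kind are a description of the libraries.

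Genes of granule transport, docking and fusion were mostly expressed. Of 21 such genes listed 20 were found, and 16 reached 1 TPM in every library, with a list median of 54.2 TPM. Lamp1, a membrane protein of lysosomes and granules, led at 200 ± 15.4 TPM. Unc13d, the priming factor Munc13-4, was at 159 ± 6.65 TPM and the adaptor subunit Ap3b1 at 128 ± 6.90 TPM. The genes Rab27a, Stx11 and Stxbp2, which with Unc13d are mutated in inherited disorders of granule release, were named after their values were seen. They stood at 89.4 ± 8.97, 83.8 ± 8.03 and 126 ± 1.67 TPM. These genes serve secretory lysosomes in general and are not specific to granzyme-bearing granules. All 6 genes of mannose 6-phosphate sorting, by which granzymes reach the granule, were expressed, led by M6pr at 133 ± 11.2 TPM and Igf2r at 118 ± 4.89 TPM.

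**Figure D5:**
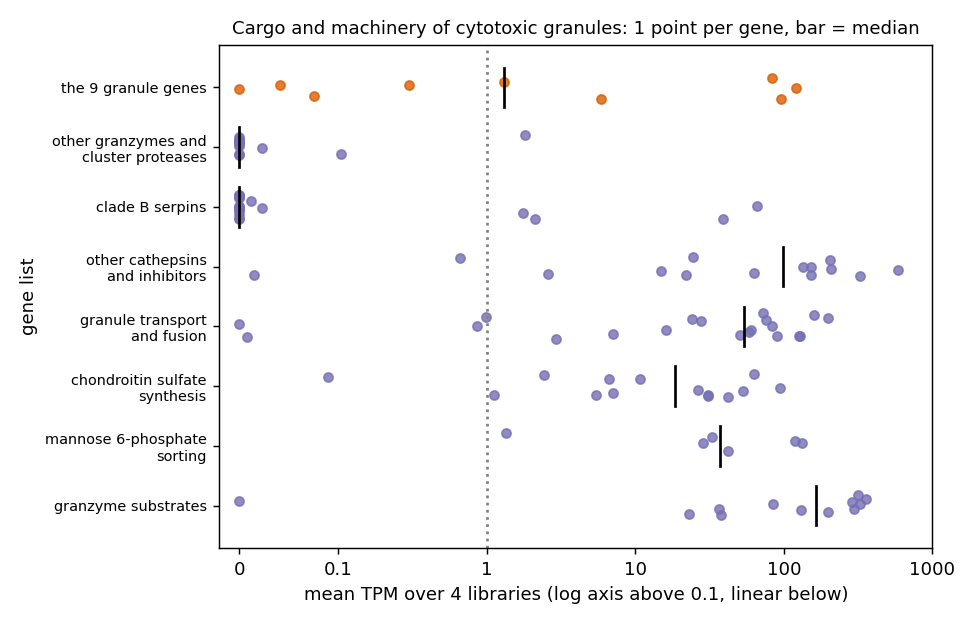
Mean TPM of each gene (1 point, bar = list median) for the 9 granule genes and 7 further lists; the axis is logarithmic above 0.1 TPM and linear below, and the dotted line marks 1 TPM. The medians of other granzymes and of clade B serpins are 0, while that of granule transport and fusion genes is 54.2 TPM.

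Proteins that granzymes cut were abundant at the transcript level in the same cells. Of 12 such genes 11 were expressed, with a list median of 164 TPM, where the median of all genes expressed in every library was 26.2 TPM. The list was led by the SET complex genes Hmgb2 (359 ± 11.6 TPM), Anp32a (323 ± 13.8 TPM) and Set (314 ± 23.0 TPM). Any relation of these levels to granzymes was not tested. Death ligands were present at lower levels: Tnfsf10, which encodes TRAIL, was at 21.3 ± 1.12 TPM and Fasl at 18.8 ± 1.56 TPM. Of the 5 genes listed as other pore formers and death ligands, a list that also holds the cytokine gene Ifng, 3 were expressed (list median 12.8 TPM). Of 9 transcription factors tied to the cytotoxic programme 6 were expressed, led by Bhlhe40 (360 ± 16.8 TPM), Runx3 (85.8 ± 4.43 TPM) and Id2 (34.5 ± 5.47 TPM), with a list median of 7.91 TPM. Those not expressed were Zfp683, Prdm1 and Zeb2, which averaged 0.451, 0.397 and 0.324 TPM. Across all 17 lists, 0 of the 100 genes tested varied beyond the trend by edgeR after Benjamini-Hochberg adjustment and 0 with the DESeq2 trend. With a single common dispersion edgeR called 2 of them. Before adjustment 4 had a p under 0.05 in edgeR's test, or 4% against 5.97% of all genes.

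Most markers of other cell types were not expressed in every library. Those that were, such as Cd8b1, Cd68 and Kit, had means above the 1.31 TPM of Gzmb. Of 10 NK cell markers 1 was expressed (Klrd1, 1.62 ± 0.654 TPM), and the receptor gene Ncr1 and the adaptor gene Tyrobp had no count. Of 4 CD8 T cell markers 1 was expressed (Cd8b1, 14.4 ± 2.09 TPM), while Cd8a was at 0.342, 0.314, 0.671 and 0 TPM. Mast cells and basophils were represented by 1 of 11 markers (Kit, 7.26 ± 1.08 TPM), with no count of Cpa3, Fcer1a or Mcpt8. Of 12 monocyte, macrophage and neutrophil markers 2 were expressed, led by Cd68 at 7.45 ± 1.25 TPM. Of 5 gamma-delta and NKT cell markers 2 were expressed and of 5 B cell markers 1. The summed TPM of the mast cell and basophil list was 5.89, 8.35, 8.26 and 8.11 in replicates 1 to 4, mostly Kit. Kit alone was at 5.73, 8.04, 7.97 and 7.32 TPM, and its order over the libraries, like that of the sum, was that of Gzmb. The other markers with counts, Hdc, Gata2 and Cma1, were highest in replicate 4, and 7 of 11 markers had no count. For the monocyte, macrophage and neutrophil list the summed TPM was 9.11, 11.3, 8.71 and 10.3, highest in replicate 2, as Gzmb was. Its 2 expressed markers differed. Cd68 was highest in replicate 2, whereas Adgre1, at 1.19, 1.35, 1.67 and 2.79 TPM, was highest in replicate 4. The NK list summed to 3.41, 1.90, 1.71 and 2.86, highest in replicate 1, where Gzmb was lowest. The CD8 list summed to 13, 13.5, 16.6 and 16.7, lowest in replicate 1. Sums ranged from 3.50 to 3.97 for the gamma-delta and NKT cell list and from 5.32 to 7.34 for the B cell list. The part of such cells in the levels of Gzmb and Prf1 was not tested.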

How the data were processed

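RNA from 4 libraries of 1 group was used; the assay is titled total RNA-seq while the linked library protocol is for poly(A)+ RNA, per the labels. The authors deposited raw counts of read pairs per gene, without normalization. They ran featureCounts 1.4.6-p4 on STAR alignments (both ends mapped, strand setting 2, exons grouped by gene, GENCODE M13), and the command has no option for multimapping reads, per the file headers. The labels name mm10. How reads were aligned is otherwise not stated in these sources. Exon lengths, in the same deposited tables, were used for TPM.

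Symbols came from GENCODE M21, which matched 50376 of 50600 identifiers. TPM and CPM were computed from the counts. To test variation, edgeR 4.0.16 under R 4.3.3 was used with filterByExpr (minimum count 10), TMM scaling, only an intercept, trended dispersion and an upper-tail test of the residual deviance. The procedure was tested on simulated data, with changes placed in 1 library per gene, among genes with a mean of 5 CPM or more. DESeq2 1.42.0 gave an alternative. Level differences used exact sign-flip permutation tests over 4 libraries. Counting intervals are 95% Poisson and cover counting error only. Since separate animals are not stated, p-values measure just the spread between these samples, which may in part be technical.

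The members and lists were chosen with earlier results of these data known. All members are named, and in each list up to 3 of the highest expressed genes and any called gene. Others are named as examples chosen after their values were seen, including listed genes given at 0. Promoter sequences are RefSeq's, and 9 of 9 members matched.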

Additional observations from a re-analysis of the deposited data

Results flagged for a closer look

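Of 56 values examined, 2 had 1 library far from the other 3, and chance alone gives about 1 in 20. Gzmm was highest in replicate 1, at 3.43 TPM against 1.15 to 1.36 TPM in the others. Fasl was highest in replicate 4, at 21.1 TPM against 17.8 to 18.2 TPM. In edgeR's test neither gene was called (Benjamini-Hochberg adjusted p = 0.95 for Gzmm and 0.9998 for Fasl).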

How the results depend on the processing

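The count of members varying beyond the trend was 0 in every alternative run. The count of all genes, 51, was 931 with 1 common dispersion in place of the trend and ranged from 17 to 56 when 1 replicate was left out: 17 without replicate 1, 23 without replicate 3 and 33 without replicate 4. The cause was not tested. The number of members expressed in every library, 4, was 5 without replicate 1 or with a mean of 1 TPM required, because Gzmb then passed. With transcript lengths, however, the mean of Gzmb was 0.935 TPM. Its own length hardly changed (1418 bases of exons, 1436 in the transcript). In that setting the lengths of other genes change too, which rescales the TPM of every gene, while the cut of 1 TPM stays fixed. The means of the 8 level differences kept their sign in CPM, with transcript lengths, with a pseudocount of 0.1 and without each replicate, although Gzmb minus Prf1 was negative in replicate 1 in CPM. With transcript lengths the mean levels of Nkg7, Srgn, Serpinb9 and Ctsc moved by more than 1 SD (72.2, 75.9, 4.28 and 157 TPM). No paired analysis was possible because there is 1 group, so no replicate number is shared between groups; the level differences were taken within libraries. Depth limits Gzma, Gzmc, Gzmk and Prf1, which had 0 to 27 counts per library.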

Other observations

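A few genes outside the naming rule, singled out after their values were seen, are given as values. Tbx21, the T-box factor that drives effector genes in Th1 and CD8 T cells, was at 6.50, 11.2, 5.81 and 8.16 TPM in replicates 1 to 4, highest in replicate 2 and lowest in replicate 3, the library with the least Prf1. Ifng, an effector cytokine often made with granzymes, was at 0.0533, 0.424, 0.183 and 0.231 TPM, highest in replicate 2 and lowest in replicate 1, as Gzmb was. These levels rest on 1, 12, 7 and 3 counts, at or under the 3-count floor in replicates 1 and 4. The order of replicates 3 and 4 was the reverse of that for Gzmb. The related factor Eomes was at 1.58, 1.93, 2.67 and 1.65 TPM, highest in replicate 3. Ctsl, a cathepsin that also acts in lysosomes, was at 15.1, 26.3, 23.7 and 32.7 TPM, lowest in replicate 1 (edgeR, Benjamini-Hochberg adjusted p = 0.132). Whether these levels are related to those of Gzmb was not tested, since 4 libraries are too few for a correlation.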
